A study of Mus musculus with 10 samples.

Results

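The resting transcriptome of effector memory (EM) γδ T cells was described in the spleens of 5 naïve mice, whose libraries make up 5 of the 10 libraries of the series. The members were chosen by their label, as the libraries of mice that had never been infected, and no measured value entered that rule. Both these members and the gene lists were chosen with earlier results of these data known. All were female C57BL/6 mice. The age given, 6 to 8 weeks, is that at the start of the experiment, when the other mice were infected. They carried no infection but were given the same drugs as the infected mice at the time that corresponds to day 14, with chloroquine and pyrimethamine at 10 mg/kg each by intraperitoneal injection, followed by drugs in the drinking water for 5 days. Spleens were taken 12 weeks after treatment, so that "naïve" refers to the parasite and not to the drugs. Cells were sorted by surface markers that included CD3, the γδ TCR and CD44, and each mouse gave 1 library, numbered here as naïve mice 1 to 5. The 5 libraries of pre-exposed mice were not read, and no comparison with them was made.

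γδ T cells carry a T cell receptor (TCR) built from a γ and a δ chain in place of the α and β chains of conventional T cells. In the mouse they leave the thymus in waves that use different variable (V) segments, and many are already committed to a programme when they leave. Cells of the type 1 programme express the transcription factor T-bet (encoded by Tbx21), NK receptors and IFNγ. Those of the type 17 programme express the IL-23 receptor and IL-17, and include cells with the V segments Vγ6 and Vδ1 (Trgv6 and Trdv4). CD44 is among the markers of cells of effector memory phenotype, which recirculate through spleen and tissues.

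Levels are given on a pair of scales. CPM are a gene's read count divided by the total of its library and multiplied by 1e6, and TPM (abundance scaled by length) divide each count by the gene's length before scaling the library to a sum of 1e6. Levels of different genes are compared in TPM only. Values listed for 1 gene are in the order of naïve mice 1 to 5, and a mean is given with its SD over the 5 mice. The libraries held 6587199 to 19993444 counts, so that a gene without counts in a library may have had up to 3, which is 0.150 to 0.455 CPM. Such limits cover counting error only. Of 27179 genes in the table, 11700 had at least 1 CPM in all 5 libraries, and 7915 had no count in any. The cells' identity was checked against their markers. Trdc, the constant segment of the δ chain, had 4971, 5752, 3227, 3335 and 2995 TPM and ranked 14 of all genes. Cd3g and Cd3e, subunits of the CD3 complex that carries the TCR signal, averaged 2457 ± 556 and 788 ± 78.8 TPM (SD, n = 5). Il23r and Ifng averaged 114 ± 36.0 and 106 ± 20.2 TPM. All 5 markers were present in every library.

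Some γ chain genes are near copies of each other, and their sequences show how far reads could tell them apart. The constant segments Trgc1 to Trgc4 lie on chromosome 13 of GRCm38 (mm10). The first 120 aligned coding bases of each are printed 5′ to 3′ on the coding strand, from chr13:19214103-19214222 (plus strand), chr13:19307432-19307551 (minus strand), chr13:19260885-19261004 (plus strand) and chr13:19344558-19344677 (plus strand), all of them exonic. Capitals mark the bases that differ from Trgc1.
Trgc1: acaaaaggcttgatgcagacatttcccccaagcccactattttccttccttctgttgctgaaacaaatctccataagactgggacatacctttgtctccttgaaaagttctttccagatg
Trgc2: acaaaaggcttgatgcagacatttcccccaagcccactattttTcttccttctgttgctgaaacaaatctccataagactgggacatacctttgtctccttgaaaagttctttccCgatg
Trgc3: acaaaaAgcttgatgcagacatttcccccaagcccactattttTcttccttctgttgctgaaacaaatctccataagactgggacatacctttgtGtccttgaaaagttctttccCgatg
Trgc4: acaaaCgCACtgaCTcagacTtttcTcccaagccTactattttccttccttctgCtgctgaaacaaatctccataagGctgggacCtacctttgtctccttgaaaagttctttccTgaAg
Trgc2 differed from Trgc1 at 2 of these bases, Trgc3 at 4 and Trgc4 at 14. Over their whole aligned coding sequence, Trgc1 and Trgc2 were 97.4% identical and Trgc1 and Trgc4 78.7%. Of the stretches of 76 bases in Trgc1, the length of a sequenced read, 24.1% were found letter for letter in Trgc3, 2.50% in Trgc2 and 0% in Trgc4. The split of counts among Trgc1, Trgc2 and Trgc3 is therefore uncertain, whereas Trgc4 shares no such stretch.

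The V segments Trgv1, Trgv2 and Trgv3 are a similar set on the same chromosome. The stretches printed next are exonic and come from chr13:19340151-19340270 (plus strand), chr13:19336760-19336879 (minus strand) and chr13:19242995-19243114 (plus strand), with capitals at the bases that differ from Trgv1.
Trgv1: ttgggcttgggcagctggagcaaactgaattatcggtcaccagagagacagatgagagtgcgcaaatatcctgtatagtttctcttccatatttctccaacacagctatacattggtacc
Trgv2: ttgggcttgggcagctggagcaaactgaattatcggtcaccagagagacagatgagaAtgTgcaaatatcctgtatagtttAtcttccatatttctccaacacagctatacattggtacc
Trgv3: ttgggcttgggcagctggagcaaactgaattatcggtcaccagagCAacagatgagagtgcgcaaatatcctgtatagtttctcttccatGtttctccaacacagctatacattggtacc
Trgv2 and Trgv3 each differed from Trgv1 at 3 of these 120 bases. No stretch of 76 bases in Trgv1 was found in Trgv2, and 10.7% were found in Trgv3. The segments with the widest differences between the mice are Trgv6 and Trdv4, shown here without comparison from chr13:19190621-19190740 and chr14:54075217-54075336 (both exonic, on the plus strand).
Trgv6: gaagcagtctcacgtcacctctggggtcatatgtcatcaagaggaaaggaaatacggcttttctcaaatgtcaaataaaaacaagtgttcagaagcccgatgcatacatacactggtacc
Trdv4: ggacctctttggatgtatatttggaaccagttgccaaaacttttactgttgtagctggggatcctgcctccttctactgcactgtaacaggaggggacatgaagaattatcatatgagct
Trgv6 was 59.4% to 66.1% identical to the other 6 Trgv segments and shared no stretch of 76 bases with any of them. A read of that length wholly within its coding sequence could thus not match another of these segments letter for letter. Reads reaching past the coding sequence, and matches with differing bases, were not examined.

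The most abundant transcripts of naïve EM γδ T cells included mitochondrial, cytoskeletal and antigen presentation genes. The highest TCR gene, Trdc, stood at rank 14, between H2-D1 and H2-K1. COX3, a mitochondrially encoded subunit of cytochrome c oxidase, had the highest mean at 27593 ± 5270 TPM. Tmsb4x, which encodes the actin-binding peptide thymosin β4, had 25380, 24238, 22257, 19083 and 18605 TPM. The entry 100503054, which has no symbol in the annotation used, had a mean of 23568 TPM. B2m, the light chain of MHC class I, had 17911, 18497, 16918, 13321 and 11050 TPM, and its heavy chains H2-D1 and H2-K1 averaged 4191 ± 742 and 3710 ± 312 TPM. The interferon-inducible transcript AW112010 varied more, with 14358, 16958, 13066, 7946 and 6316 TPM. Mice 4 and 5 had lower levels than the other mice for B2m and AW112010, and also for Tmsb4x. By CPM, where long genes count for more, COX1 came first and Malat1, a long nuclear noncoding RNA, ranked 5 with a mean of 8547 CPM, against rank 45 by TPM.

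Among the 25 genes with the highest mean TPM were 6 TCR segments, namely Trdc, Trgv2, Trgc4, Trgc1, Trgc2 and Trbc2, and the diversity segment Trbd1. Trbd1 is 12 bases long and had a mean of only 21.3 CPM, so its 2999 ± 752 TPM rests on its length. Ms4a4b, a membrane protein of T cells, averaged 3590 ± 1047 TPM, and Cd52, a small surface glycoprotein of lymphocytes, 2743 ± 262 TPM. Just below this group stood Srgn (serglycin, the core of granule proteoglycans) at 2274 ± 419, the chemokine gene Ccl5 at 2186 ± 425, Id2 (an inhibitor of E proteins) at 2169 ± 98.5 and the chemokine receptor Cxcr6 at 2106 ± 392 TPM. Id2 was among the steadiest of these, at 2134, 2210, 2322, 2086 and 2094 TPM. In all, 98 genes averaged at least 1000 TPM and 1779 at least 100 TPM. The 10 most abundant genes took 6.62% (95% Wilson interval 6.60 to 6.64) of the counts in mouse 5 and 10.16% (10.14 to 10.17) in mouse 3. Mitochondrially encoded genes took 7.25% (7.24 to 7.26) in mouse 3 against 4.33% (4.31 to 4.34) in mouse 5. These intervals cover counting error within 1 library only and test no difference between mice.

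All 5 constant and 12 variable segments of the γ and δ loci had a mean of at least 1 CPM, as did 13083 of all 27179 genes. The constant segments averaged 13527 ± 3429 TPM together, and the V segments 11847 ± 1727 TPM. Trgv2 was the most abundant V segment, with 4640, 4236, 3217, 3137 and 2518 TPM. Trgv4 followed with 3069, 2846, 2065, 1797 and 1152 TPM, and Trgv1 with 2651, 2459, 2005, 1518 and 1437 TPM. Trgv2 lay above Trgv4 in every mouse, whereas the order of Trgv4 and Trgv1 was turned around in mouse 5, and their means differed by less than either SD. Trgv3, Trgv5 and Trgv7 averaged 216 ± 106, 75.5 ± 23.5 and 75.1 ± 47.7 TPM.

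Trgv6 and Trdv4 had a pattern of their own. Trgv6 had 804, 232, 532, 1542 and 1618 TPM, a 6.97-fold range, and Trdv4 had 1876, 531, 1308, 3273 and 2988 TPM, a 6.16-fold range. Both were lowest in mouse 2 and highest in mice 4 and 5, whereas Trgv2, Trgv4 and Trgv1 were lower in mice 4 and 5 than in the other mice. Trdv4 made up 35.4% of the summed TPM of the segments named Trdv in mouse 2 and 83.9% in mouse 5. Segments named Trav, some of which δ chains also use, are not in that sum and had a summed level of 2536, 3350, 2003, 1524 and 1671 TPM. Of the other Trdv segments, Trdv5 and Trdv2-2 averaged 376 ± 94.4 and 274 ± 63.1 TPM. In bulk libraries, fewer cells with a segment and less of its RNA per cell cannot be told apart.

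**Figure D1:**
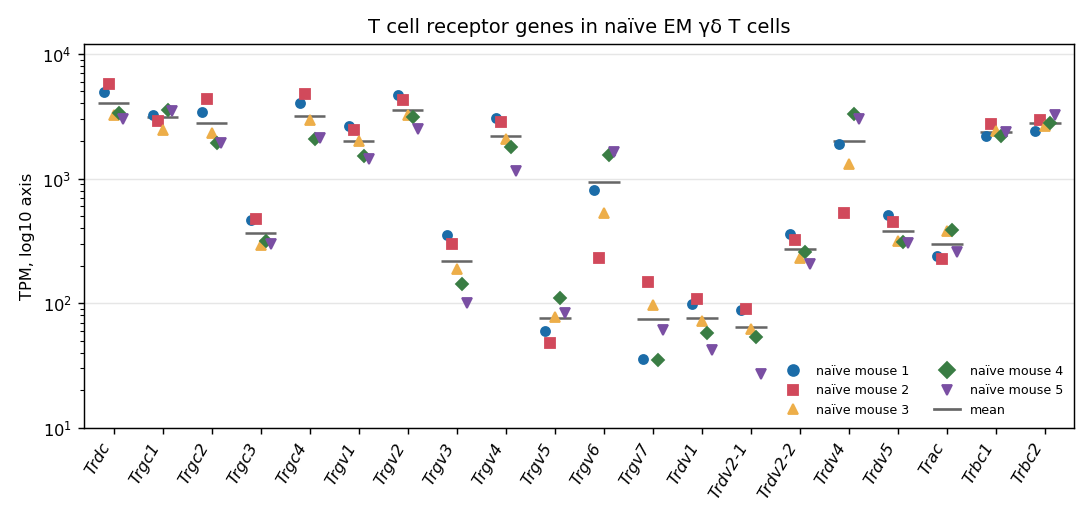
Levels of TCR genes in the 5 naïve mice, with 1 point per mouse, a grey line at the mean and TPM on a log10 axis. Trgv6 (232 to 1618 TPM) and Trdv4 (531 to 3273 TPM) spread more widely than Trgv2 (2518 to 4640 TPM), and Trac lies well below Trbc1 and Trbc2.

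Genes of the αβ TCR were also measured. Trbc2 and Trbc1, the constant segments of the β chain, averaged 2797 ± 318 and 2375 ± 222 TPM, close to Trgc2 at 2800 ± 1074 TPM. Trac, the constant segment of the α chain, had 239, 225, 382, 388 and 257 TPM, which was lower than Trbc2 in every mouse. The ratio of Trdc to Trbc2 was 2.07, 1.96, 1.22, 1.21 and 0.922, so that Trdc was higher in 4 of 5 mice. The mean log2 ratio was 0.49 ± 0.50 (two-sided exact sign-flip permutation test, p = 0.125, adjusted p = 0.156 over the 5 ratios tested), and without division by length it was 1.58. With 5 libraries the smallest p this test can give is 0.0625, so no ratio could pass a threshold of 0.05. The coreceptor genes were low, with Cd4 at 4.46 to 19.4 TPM and Cd8a at 4.52 to 14.8 TPM. Cd8b1 had 1.26, 31.5, 8.03, 8.08 and 6.29 TPM and stood highest in mouse 2. The part of αβ T cells in these values was not tested.

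Signalling genes of the TCR were present throughout. Of 19 genes of the CD3 complex and proximal signalling, 19 averaged at least 1 CPM, as did 13083 of all 27179 genes. The kinase gene Lck had 959, 1315, 838, 848 and 920 TPM, Cd3d averaged 742 ± 108 and the ζ chain gene Cd247 164 ± 24.1 TPM. The adaptor Lat averaged 338 ± 79.7 TPM and the kinase Zap70 106 ± 37.6 TPM, whereas Syk, a related kinase, averaged 0.580 ± 0.487 TPM. Blk, a Src kinase that γδ T cells of the type 17 programme use, had 150, 68.0, 121, 214 and 306 TPM and was lowest in mouse 2 and highest in mouse 5.

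Both γδ T cell programmes were present in all 5 libraries. The 18 genes of the type 1 list summed to 8608, 10350, 8193, 6109 and 7399 TPM. The 23 genes of the type 17 list summed to 2594, 1476, 2238, 3996 and 4500 TPM. By TPM, the type 1 sum was the higher in every mouse, with a ratio of type 17 to type 1 of 0.301, 0.143, 0.273, 0.654 and 0.608. The mean log2 ratio was −1.55 ± 0.91 (exact sign-flip permutation test, p = 0.0625, adjusted p = 0.104). Without division by length it was −0.23 (p = 0.6875 by the same exact test). On that scale long transcripts such as Cd163l1 (3454 bases) count for more. As this p is above 0.0625, the sign was not the same in all 5 mice there. Without the most abundant gene of each list (Cd163l1 and Ccl5), an alternative added after seeing the data, the mean log2 ratio by TPM was −1.37.

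Most type 17 genes were lowest in mouse 2. Cd163l1, a scavenger receptor of γδ T cells and the most abundant member, had 251, 142, 284, 938 and 1342 TPM, a 9.48-fold range. Sox13, a transcription factor of the IL-17-producing lineage, had 36.6, 21.2, 43.9, 88.8 and 95.5 TPM. Levels were lowest in mouse 2 and highest in mouse 5 for both genes. Ccr6, a receptor for the chemokine CCL20, had 146, 106, 112, 200 and 145 TPM, Il1r1, the receptor for IL-1, 15.6, 5.34, 14.1, 27.0 and 30.0 TPM, and Ltb4r1, the leukotriene B4 receptor, 48.6, 9.93, 36.6, 53.1 and 106 TPM. Of the 22 members with a mean of at least 1 CPM, 19 were lowest in mouse 2, against 20.0% of the 13083 genes at that level. This count was 19 also on CPM and on log2 CPM scaled with the trimmed mean of M-values (TMM). The list was chosen with earlier results of these data known, and these 22 members are not separate observations. Mouse 4 was highest for 8 of them and mouse 5 for 13, against 12.7% and 37.5% of all genes. The median SD of log2 CPM over these genes was 0.56, against 0.36 over all 13083 genes. Trgv6 and Trdv4 were likewise lowest in mouse 2 and highest in mice 4 and 5.

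Cytokines of this programme were low at rest. Il17f had 9.70, 4.75, 15.7, 21.3 and 9.34 TPM. Il17a had 1.63, 0, 6.32, 11.96 and 7.38 TPM, from 16, 0, 71, 71 and 33 counts, and the 0 counts in mouse 2 allow up to 0.217 TPM. Il22 averaged 0.933 ± 0.693 TPM. Il23r, which carries the signal of IL-23, stood well above these, at 97.1, 88.5, 82.2, 167 and 135 TPM, and ranged 2.03-fold. It was 3.58, 2.38, 4.04, 7.07 and 11.8 times the level of Il12rb2, the signalling chain of the IL-12 receptor. Il23r was higher in 5 of 5 mice (mean log2 ratio 2.30 ± 0.90, exact sign-flip permutation test, p = 0.0625, adjusted p = 0.104).

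**Figure D2:**
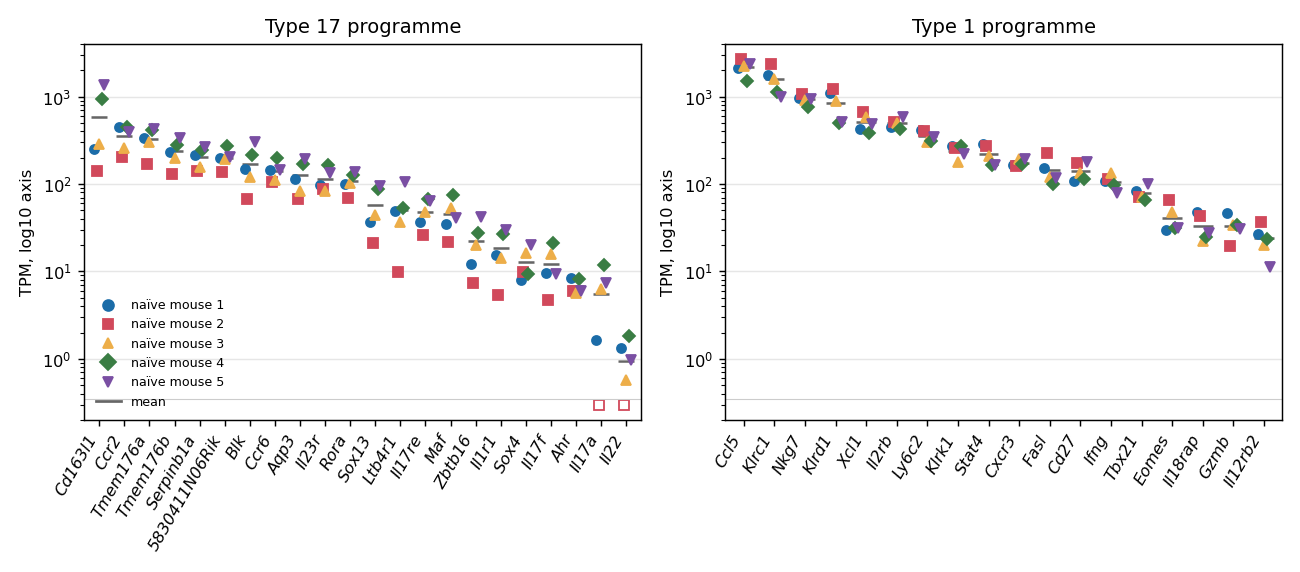
Genes of the type 17 (left) and type 1 (right) lists, ordered by mean level, with 1 point per mouse, a grey line at the mean and TPM on a log10 axis, where open symbols at the bottom mark 0 counts and 1 type 17 gene is not shown. Mouse 2 is lowest for 19 of the 22 listed type 17 genes with a mean of at least 1 CPM, and Ccl5 and Klrc1 head the type 1 list at means of 2186 and 1573 TPM.

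The promoters of 3 programme genes are shown with short motifs of factor families, nuclear receptors and T-box factors. The sequences come from RefSeq for GRCm38.p6, as the 250 bases before the start of transcription used in each promoter entry, on the gene's strand. They lie at chr6:67491856-67492105 (minus strand, Il23r), chr17:8235793-8236042 (plus strand, Ccr6) and chr7:43436888-43437137 (plus strand, Nkg7). For Ccr6 the annotated gene starts at base 8236041, so its stretch ends just inside that gene. Capitals mark the 6 bases AGGTCA or their reverse complement in Il23r and Ccr6, the half-site of nuclear receptors, and TCACAC or its reverse complement in Nkg7, the core of T-box sites.
Il23r: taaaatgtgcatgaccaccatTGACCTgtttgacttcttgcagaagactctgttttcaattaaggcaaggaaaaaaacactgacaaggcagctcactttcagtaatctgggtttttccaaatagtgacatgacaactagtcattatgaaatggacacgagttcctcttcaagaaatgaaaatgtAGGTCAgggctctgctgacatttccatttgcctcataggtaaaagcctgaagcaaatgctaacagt
Ccr6: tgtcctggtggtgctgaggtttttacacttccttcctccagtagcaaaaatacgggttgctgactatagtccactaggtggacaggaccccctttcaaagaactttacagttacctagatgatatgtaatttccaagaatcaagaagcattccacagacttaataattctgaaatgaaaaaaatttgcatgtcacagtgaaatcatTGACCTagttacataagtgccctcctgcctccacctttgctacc
Nkg7: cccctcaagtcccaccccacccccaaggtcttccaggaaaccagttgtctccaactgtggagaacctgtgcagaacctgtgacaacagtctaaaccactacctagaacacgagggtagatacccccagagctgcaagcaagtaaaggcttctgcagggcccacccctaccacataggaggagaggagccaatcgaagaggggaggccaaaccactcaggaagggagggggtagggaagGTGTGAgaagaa
Il23r held 2 matches to AGGTCA and Ccr6 held 1, on either strand, in 300 bases around the start. At least 1 match stood in the promoters of 6 of 17 type 17 genes that have a promoter entry (Sox4, Il17a, Il17f, Il23r, Ccr6 and 5830411N06Rik), of 2 of 15 type 1 genes, and of 16.0% of all 27025 promoters. TCACAC stood in 5 of 15 type 1 promoters (Il12rb2, Cxcr3, Xcl1, Nkg7 and Gzmb), in 1 of 17 type 17 promoters and in 14.4% of all. A match describes the letters only.

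The genes of the type 1 programme had a median SD of log2 CPM of 0.36, against 0.36 over all genes. Ccl5 had 2134, 2659, 2247, 1512 and 2377 TPM. Nkg7, a granule membrane protein, had 962, 1084, 912, 760 and 935 TPM, and Tbx21 averaged 78.2 ± 13.8 TPM with a range of 65.5 to 99.6. Its relative Eomes had 30.1, 66.0, 48.0, 31.2 and 31.1 TPM, with the highest level in mouse 2. Ifng had 109, 115, 132, 97.9 and 78.1 TPM, a 1.69-fold range. The genes for receptor chains of cytokines that induce it were also present, as Il18r1 averaged 72.4 ± 8.75, Il18rap 33.3 ± 11.7 and Il12rb2 23.9 ± 9.42 TPM. In naïve mice 1, 3, 4 and 5 Ifng was 62.9, 20.6, 8.13 and 10.5 times Il17a, with 0.1 TPM added to both, and in mouse 2 it was at least 531-fold higher than the 3 counts that 0 counts allow. Ifng was the higher in 5 of 5 mice (exact sign-flip permutation test, p = 0.0625, adjusted p = 0.104). The mean log2 ratio was 4.19 over the 4 mice with Il17a counts. Over all 5 it depends on the value put in place of 0 counts in mouse 2, and was 5.38 ± 2.91 with 0.1 TPM added, 4.52 with 1 TPM added and at least 5.19 with mouse 2 at that bound, an alternative added after seeing the data.

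NK receptor genes were abundant and differed between the mice. The 28 genes of this list summed to 7445, 9514, 6502, 4589 and 4453 TPM. Klrc1, which encodes the inhibitory receptor NKG2A, had 1781, 2375, 1593, 1119 and 996 TPM, and its partner Klrd1 (CD94) had 1107, 1218, 889, 501 and 514 TPM. The activating receptor Klrk1 (NKG2D) averaged 241 ± 40.7 TPM. Klre1, a lectin-like receptor, had 813, 1256, 1077, 508 and 507 TPM, Klrb1c (NK1.1) 362, 483, 220, 175 and 203 TPM and Ncr1 (NKp46) 26.9, 47.0, 14.3, 14.6 and 13.4 TPM. Mouse 2 was highest for 21 of 28 members, against 21.9% of all genes at that level, and the count was the same on CPM and on TMM-scaled values. Mouse 2 was highest for most NK receptors and lowest for most type 17 genes. Mice 4 and 5 were lower for Klrc1, Klrd1 and Klre1 than the other mice. Mouse 2 also had the most counts in its library (19993444), and mice 4 and 5 the fewest (8582578 and 6587199). The part of depth in these patterns was not tested. The Ly49 genes ranged from 2.35 ± 0.998 TPM (Klra8) to 81.6 ± 37.3 TPM (Klra6). As members of this family are similar in sequence, their separate values are uncertain.

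Cytokine and chemokine genes were led by a few members. Ltb, which encodes lymphotoxin β, had 997, 1091, 1388, 1787 and 2219 TPM and made up 72.7% of the 21 genes' mean sum. Il4 had 55.7, 84.8, 46.3, 40.2 and 29.8 TPM, higher than Tnf at 14.2 to 31.9 TPM in all mice except mouse 5. Tgfb1 averaged 34.3 ± 13.7, Csf2 15.4 ± 3.43 and Il2 3.55 ± 1.42 TPM. Il5 was at 0 counts in all 5 libraries, which allows up to 0.166 to 0.512 TPM, and Il10 and Il13 averaged 0.0302 and 0.0722 TPM. Il21 had 0, 0, 9.68, 2.63 and 0.597 TPM and stood highest in mouse 3. Ccl5 made up 76.7% of the chemokine list. Xcl1, a chemokine for XCR1+ dendritic cells, had 423, 664, 592, 382 and 492 TPM, and Ccl4 and Ccl3, inflammatory chemokines, averaged 91.5 ± 20.8 and 48.3 ± 15.3 TPM. Ccl20, the ligand of CCR6, was at 0 counts in all libraries.

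Granule genes were uneven in level. Srgn (2274 ± 419 TPM) and Nkg7 (931 ± 116 TPM) were high, as was the cysteine protease gene Ctsw at 418 ± 54.6 TPM. Among the effector proteases, Gzma had 260, 198, 185, 139 and 340 TPM, whereas Gzmb had 47.0, 19.6, 33.8, 34.1 and 30.8 TPM. Prf1, which encodes perforin, varied little at 24.8, 20.8, 23.3, 28.3 and 27.7 TPM. Gzma was above Prf1 in every mouse. Gzmk had 2.25, 21.9, 3.82, 1.99 and 6.28 TPM, with mouse 2 the highest. The death receptor ligand Fasl averaged 144 ± 50.8 and Tnfsf10 (TRAIL) 25.2 ± 8.70 TPM.

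**Figure D3:**
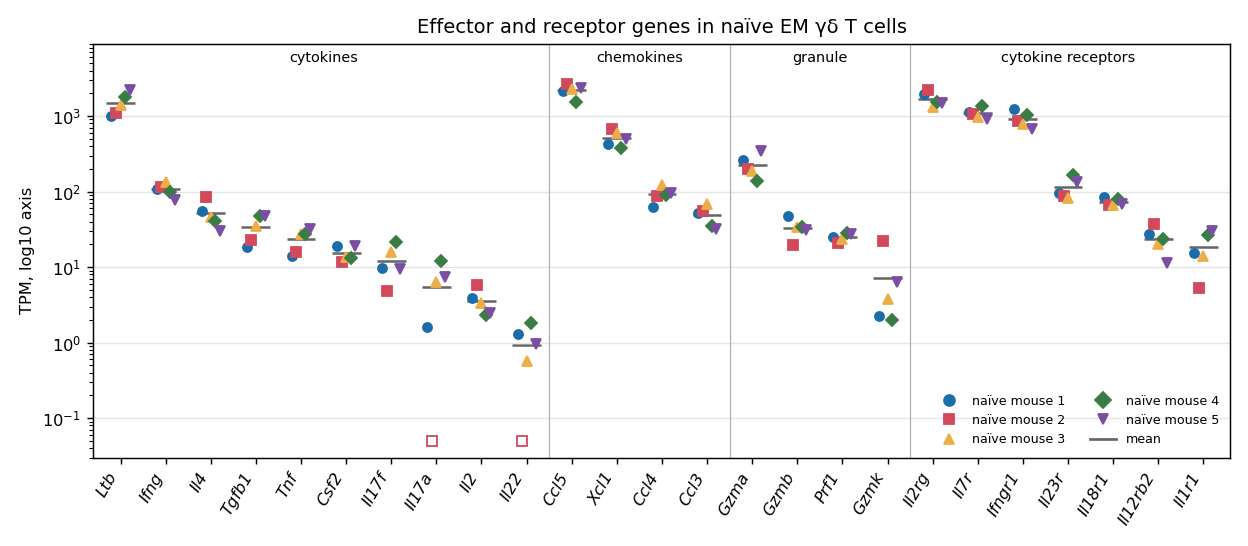
Cytokine, chemokine, granule and cytokine receptor genes in the 5 naïve mice, with 1 point per mouse, a grey line at the mean and TPM on a log10 axis, where open symbols mark 0 counts. Ltb (mean 1496 TPM), Ccl5 and Il2rg are the highest of their groups, and Il17a and Il22 are at 0 counts in mouse 2.

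Receptors for homeostatic cytokines were high. Il2rg, the common γ chain, had 1941, 2214, 1323, 1534 and 1501 TPM, Il7r, the IL-7 receptor, 1135, 1060, 974, 1360 and 908 TPM, and Il2rb, shared by IL-2 and IL-15, 453, 507, 498, 424 and 585 TPM. Ifngr1 averaged 918 ± 215 TPM, and its partner Ifngr2 18.6 ± 3.34 TPM. Il17re and Il17ra, receptor chains for IL-17 family cytokines, averaged 48.3 ± 17.4 and 74.8 ± 15.9 TPM. Il1rl1, the receptor for IL-33, was near 0 at 0.197 ± 0.189 TPM.

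Homing receptors were led by Cxcr6, the receptor for CXCL16, at 2405, 2109, 1550, 2535 and 1929 TPM. The gut-homing integrin gene Itgb7 had 612, 375, 783, 1109 and 1372 TPM, and Selplg, a selectin ligand, 516, 406, 589, 797 and 1147 TPM. Ccr2, a receptor of inflammatory chemokines, averaged 352 ± 113 and Cxcr3 176 ± 15.5 TPM. Of the 29 members, 17 were lowest in mouse 2, Itgb7 and Selplg among them, against 20.0% of all genes. Cd44, a surface marker of the sort, had 57.5, 59.2, 77.1, 88.7 and 76.5 TPM. Transcripts of tissue exit and retention stood side by side, with S1pr1 at 254 ± 59.6, Klf2 at 312 ± 94.3, Cd69 at 244 ± 75.2 and Itgae at 39.7 ± 12.6 TPM.

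Memory and quiescence genes were even across mice, with a median SD of log2 CPM of 0.23 against 0.36 for all genes. Tcf7, which encodes TCF-1, had 428, 425, 324, 424 and 419 TPM, with mouse 3 the lowest. Btg1, an antiproliferative gene, averaged 484 ± 33.6 and Bcl2, a survival gene, 26.4 ± 1.74 TPM. Cell cycle genes were low but present. Their 16 genes summed to 489, 375, 437, 463 and 546 TPM, of which Pcna, the sliding clamp of DNA replication, averaged 126 ± 5.46, and Mki67, the Ki-67 antigen gene, had 7.28, 1.80, 5.18, 4.27 and 11.4 TPM. Costimulatory and inhibitory receptors were led by Cd2 at 380 ± 76.6 TPM. Pdcd1 (PD-1) averaged 114 ± 35.3, Icos 92.7 ± 11.3 and Lag3 1.99 ± 0.600 TPM. Tnfrsf4 (OX40) had 2.06, 3.75, 37.8, 21.9 and 11.1 TPM and Ctla4 3.02, 2.86, 22.4, 12.5 and 8.68 TPM, and both were highest in mouse 3 and low in mice 1 and 2.

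Immediate early genes, which respond within minutes to stimulation and to handling of cells, summed to 3690, 3760, 5865, 6168 and 6179 TPM. The sums of mice 1 and 2 lay below those of the other mice. Junb, a subunit of AP-1, had 1255, 1318, 2052, 2146 and 2232 TPM, and Egr1, a zinc finger factor, 32.7, 37.6, 142, 103 and 140 TPM. Of 19 members with at least 1 CPM, 12 were lowest in mouse 1, against 23.0% of all genes. Among glycolysis genes, Ldha, which encodes a lactate dehydrogenase subunit, had 504, 529, 603, 738 and 861 TPM and Aldoa, the aldolase gene, 285, 276, 382, 406 and 503 TPM.

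Markers of other cell types were also measured. The plasma cell list summed to 2419, 1177, 2880, 12592 and 1985 TPM over 13 genes. Mouse 4 was highest for 11 of the 11 with a mean of at least 1 CPM, against 12.7% of all genes at that level. Most of the 11 are immunoglobulin genes, so they are not separate observations. Igkc, the constant segment of the κ light chain, had 1540, 485, 1831, 7558 and 557 TPM, and Jchain, which joins IgA and IgM, 84.9, 65.4, 119, 549 and 64.7 TPM. Immunoglobulin genes took 0.160% (95% Wilson interval 0.158 to 0.162), 0.0926% (0.0913 to 0.0939), 0.190% (0.188 to 0.192), 0.805% (0.799 to 0.811) and 0.120% (0.117 to 0.123) of the counts. The intervals cover counting error within 1 library only. Per length, immunoglobulin genes summed to 5568, 2520, 6466, 30665 and 3553 TPM, highest in mouse 4. In that mouse the plasma cell sum was above the summed γδ TCR constant segments, at 11199 TPM. Of 10 B cell genes, 6 averaged under 1 TPM, and Pax5 and Ebf1, which encode B cell transcription factors, were at 0 counts in all libraries. Cd79b, a chain of the B cell receptor complex, averaged 94.3 ± 33.0 TPM, and Cd22, a B cell lectin, 23.8 ± 8.78 TPM.

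The summed levels of the conventional dendritic cell list and of the monocyte and macrophage list were lower in mice 1 and 2 than in mice 3, 4 and 5. The conventional dendritic cell list summed to 107, 146, 443, 607 and 487 TPM. Cd74, the invariant chain of MHC class II, had 49.2, 58.3, 239, 299 and 244 TPM, H2-Aa, a class II chain, 11.5, 22.8, 55.5, 93.9 and 53.9 TPM, and Flt3, a receptor of dendritic cells, averaged 0.541 ± 0.513 TPM. The monocyte and macrophage list summed to 67.2, 54.9, 151, 259 and 178 TPM, of which Lyz2 made up 84.0%, while Fcgr1 was at 0 counts in all libraries. The erythroid list summed to 409, 910, 1687, 746 and 875 TPM, with mouse 3 highest for Hba-a1 at 481 TPM. The neutrophil list had another order, with sums of 51.7, 14.9, 81.4, 116 and 14.9 TPM, and S100a8 was at 0 counts in mice 2 and 5 and Ly6g in all libraries. The mast cell and basophil list summed to 4.93 to 13.2 TPM, the plasmacytoid dendritic cell list to 114 to 173 TPM and the platelet list to at most 3.93 TPM. The NK cell list, whose genes γδ T cells also express, summed to 1281, 1922, 1409, 756 and 773 TPM. The part of these cells in the levels of other genes was not tested.

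**Figure D4:**
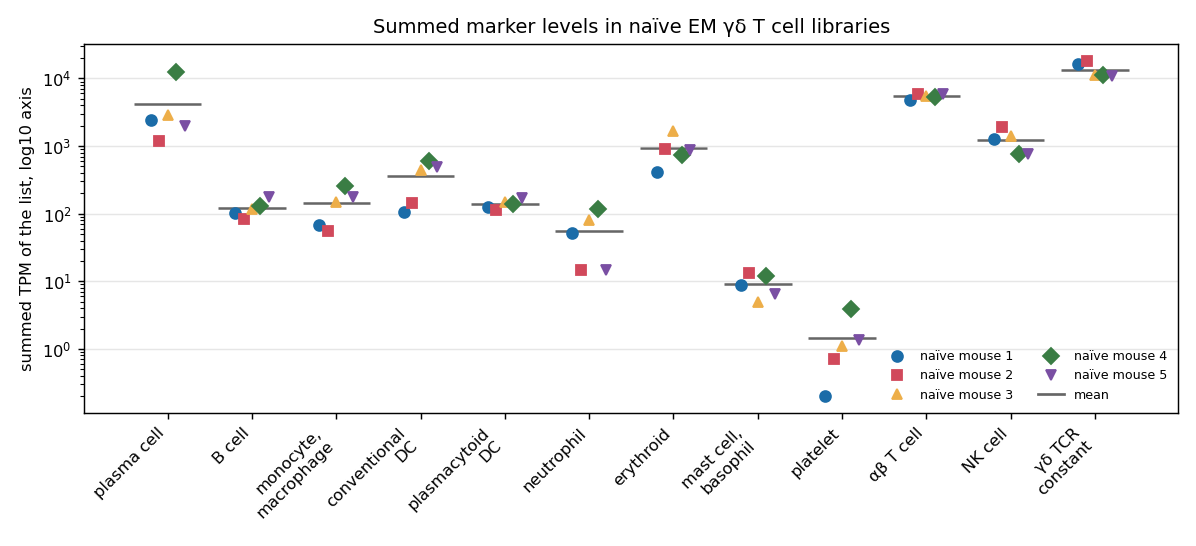
Summed TPM of marker lists in the 5 naïve mice, with 1 point per mouse, a grey line at the mean and a log10 axis. The plasma cell sum of mouse 4 (12592 TPM) stands apart from those of the other mice (1177 to 2880 TPM), and the γδ TCR constant segments sum to 10809 to 18256 TPM.

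Most genes were even between the mice. Over the 11978 genes that passed the filter on low counts, the median SD of log2 CPM was 0.34, with a 10th percentile of 0.17 and a 90th of 0.67, and 77.0% of genes had an SD under 0.5. The median biological coefficient of variation was 0.255. Spearman's rho across genes was 0.928 to 0.977 over the 10 pairs of libraries, where genes are not independent replicates. Among genes with at least 10 CPM, the smallest SD was that of Fyco1, an adaptor of vesicle transport, with 51.3, 52.0, 52.6, 54.7 and 55.4 CPM. Suclg1 and Sdhb, enzymes of the citric acid cycle, and Ly6e, a lymphocyte surface protein at 1941 CPM, were also among the 10 steadiest, with SDs of log2 CPM of 0.033, 0.042 and 0.045.

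The widest spread was that of immunoglobulin genes. Of 9493 genes with a mean of at least 10 CPM, 114 (1.20%) had an SD of log2 CPM above 1, and 38 of these were immunoglobulin genes, out of 39 immunoglobulin genes at that level. The 25 widest genes with a symbol were all immunoglobulin genes. Of 67 V segments that reached 10 CPM in a library, 40 were at 1 CPM or more in only 1 library and 0 in all 5. Mouse 4 was highest for 48, against 11.2% of all genes with a mean of at least 10 CPM (TMM scale). A gene could pass the mean of 10 CPM, and a segment 10 CPM in a library, through the 1 library where it was high. Ighv5-15, for one, had 926 counts in mouse 1 and 0 in the others. The choice thus partly sets the 38 of 39, the 25 widest and the counts of V segments. Ighg2b, a constant segment of IgG, had 125, 0, 164, 573 and 0 CPM. Igkv8-30 had 199, 0, 0, 0.117 and 0 CPM, and so was almost private to mouse 1, whereas Igkv6-15 had 0.140, 0, 0, 169 and 0 CPM.

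Of the other 76 wide genes, 42 were lowest in mouse 2, against 19.6% of all genes with a mean of at least 10 CPM, and 32 were highest in mouse 5, against 28.7%. Among those with at least 50 CPM were Cd163l1, Trdv4 and Trgv6. Genes named from here on to the end of the paragraph were chosen after their values were seen. Tppp3, a tubulin-associated gene, had 56.8, 10.8, 74.7, 159 and 244 TPM, Adam8, a membrane protease, 56.0, 22.1, 67.4, 127 and 170 TPM, and Nrp1, a neuropilin, 10.01, 3.61, 15.7, 26.3 and 24.5 TPM. These 3 were lowest in mouse 2 and highest in mice 4 and 5, as were Trgv6 and Trdv4. Tdrd9, a Tudor domain helicase, had 10.2, 1.60, 7.83, 46.6 and 58.8 CPM. Xlr3b, a gene of an X-linked cluster of close copies, had 56.2, 115, 9.80, 94.5 and 27.0 TPM and a different order, as did Spp1 (osteopontin), with 1.33, 5.60, 52.1, 10.5 and 4.25 CPM.

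**Figure D5:**
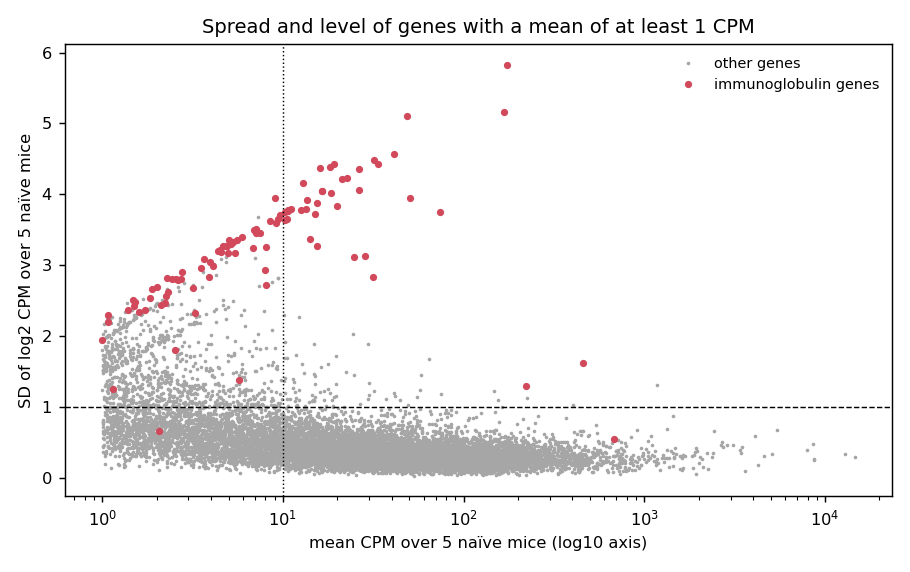
SD of log2 CPM over the 5 naïve mice against mean CPM (log10 axis) for genes with a mean of at least 1 CPM, with immunoglobulin genes in red, a dashed line at an SD of 1 and a dotted line at 10 CPM. Of the 114 genes beyond both lines, 38 are immunoglobulin genes, and these hold the largest SDs. A gene could pass 10 CPM through the 1 library where it was high, which partly sets these counts.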

How the data were processed

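Spleen EM γδ T cells of 5 naïve mice were profiled by RNA sequencing (NextSeq 500, paired reads of 76 bases). Subread served the authors for alignment to mm10, and featureCounts, with the NCBI annotation that Subread ships, for counts per Entrez gene. The deposited values are whole-number counts, not normalized. Which versions and which strand setting they used is not stated in the sources, so overlapping and antisense genes are uncertain. The library kit is SMART ultra-low by the paper and TruSeq by the labels. Single-library files equalled the series table in all 5 naïve libraries, and no pair of libraries agreed within sampling noise.

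Groups and replicate numbers came from the labels. Each library came from 1 donor mouse, per the labels and the paper. Symbols and coordinates came from RefSeq for GRCm38.p6 (25275 of 27179 IDs matched). Genes without a symbol (4.55% to 4.97% of counts) stayed in the totals. CPM used library totals, TPM the deposited gene length. For spread, log2 CPM used TMM factors and a prior count of 2 (edgeR 4.0.16, R 4.3.3), after filterByExpr for medians. DESeq2 1.42.0 was an alternative, as were other filters, scalings, pseudocounts and each library left out. Depth was 6587199 to 19993444 counts. The 5 ratios within libraries were tested by two-sided exact sign-flip permutation, with a pseudocount of 0.1 TPM and Benjamini-Hochberg adjustment. The spread and sign-flip steps were tested on simulated data. TCR sequences came from GENCODE M21 transcripts, matched by gene name, and promoters from RefSeq. The named genes are the 25 highest by mean TPM and by mean CPM, members of 28 gene lists, and of genes with a mean of at least 10 CPM the 25 with the largest and 10 with the smallest SD, without those lacking a symbol. Some genes and 1 of the 5 ratios are not reported here, though list sums and counts include these genes. Members and lists were chosen with earlier results of these data known. Genes of the same list are not separate observations, so counts of them per mouse are descriptive.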

Additional observations from a re-analysis of the deposited data

Results flagged for a closer look

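For each of the library properties, lists and genes given per library (134 sets of values), the highest and the lowest mouse were set against the others, and 14 stood apart by more than Dixon's 95% limit of 0.710 for 5 samples. Chance alone marks about 1 in 20 sets if the values are normally distributed, which was not tested. This rate does not apply to genes named for their wide spread over these mice or after their values were seen, such as immunoglobulin genes and Spp1, and the sets overlap. Of the 14, 7 concern immunoglobulin in naïve mouse 4, which held 0.805% of counts in immunoglobulin genes against 0.0926% to 0.190% in the other mice, a plasma cell sum of 12592 TPM against 1177 to 2880, Igkc at 7558 TPM against 485 to 1831, Ighg2b at 793 TPM against 0 to 220, Igha at 1000.3 TPM against 0 to 109, Jchain at 549 TPM against 64.7 to 119 and Igkv6-15 at 823 TPM against 0 to 0.686. In naïve mouse 1, Igkv8-30 stood at 926 TPM against 0 to 0.540. In naïve mouse 2, Lck stood at 1315 TPM against 838 to 959, Cd8b1 at 31.5 TPM against 1.26 to 8.08 and Gzmk at 21.9 TPM against 1.99 to 6.28. In naïve mouse 3, Tcf7 was low at 324 TPM against 419 to 428, Spp1 was high at 51.5 TPM against 1.36 to 10.7, and Il21 was high at 9.68 TPM against 0 to 2.63.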

How the results depend on the processing

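No paired analysis was possible because only 1 group was read and no test between groups was made. Of 310 comparisons of a result with an alternative, none turned the sign of a mean log2 ratio. This covers the mean and not each mouse, as signs differed between mice for type 17 over type 1 without division by length. The sign-flip test could not pass 0.05 under any setting with 5 or 4 libraries. The 10 most abundant genes took 6.14% of counts without mitochondrially encoded genes, against 8.19%. The median SD was 0.43 without the filter on low counts, against 0.34. Genes with an SD above 1 numbered 1035 at a mean of at least 1 CPM and 17 at 50 CPM, against 114 at 10 CPM, and 76 without immunoglobulin genes (added after seeing the data). The TPM without immunoglobulin, mitochondrial and rRNA genes raised the mean sums of the αβ T cell list to 6136, transcription factors to 5249, granule genes to 5724, cytokine receptors to 6139, costimulatory and inhibitory receptors to 2547 and memory genes to 4446 TPM, since fewer genes share the total, and the plasma cell list was not recomputed there because its immunoglobulin genes are left out. The other 300 comparisons, 190 of which left out 1 library, stayed within 1 SD or, for counts, within 1.5 times. For the ratios, the mean stayed on the same side of 0. Without 1 mouse the mean log2 ratios ranged from −1.78 to −1.23 (type 17 over type 1), 0.35 to 0.65 (Trdc over Trbc2), 1.98 to 2.56 (Il23r over Il12rb2) and, resting on the 0.1 TPM added in mouse 2, 4.19 to 5.98 (Ifng over Il17a), and genes with an SD above 1 from 109 to 144. The plasma cell list averaged 4211 TPM and 2115 TPM without naïve mouse 4. Low genes are limited by depth, with floors of 0.150 to 0.455 CPM.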
